A study of Rattus norvegicus with 20 samples.

Results

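The transcripts of 10 circadian clock genes were followed in the gastrocnemius, the large calf muscle, of tumour-bearing rats. The genes were chosen by symbol, Arntl, Npas2, Per1, Per2, Per3, Ciart, Bhlhe40, Nr1d1, Nr1d2 and Dbp, and are 10 of 32495 named gene rows in the deposited count table. They were chosen with earlier results of these data known. All rats were female Fischer 344 carrying the Ward colorectal carcinoma, and no tumour-free rats were included. TUMOUR STD rats (5 samples) ate the standard diet without chemotherapy, CHEMO STD rats (6 samples) ate the same diet and received cycles of CPT-11 (irinotecan) followed by 5-FU (5-fluorouracil), and CHEMO FO rats (8 samples) received the same drugs and ate a fish oil diet with EPA and DHA, the long-chain n-3 fatty acids, from the start of chemotherapy. CHEMO STD libraries 1 and 2 differed far less than any other pair of libraries within a group, although by more than counting noise alone would give (chi-square per gene 2.23, against 13.7 to 255 in 58 other pairs), so their counts were summed and enter as sample 1+2. The sources used here give neither the hour of muscle collection nor the feeding state of the rats at that hour. The authors report that food intake fell significantly after chemotherapy on both diets. In the comparisons with TUMOUR STD, lower food intake and the drugs therefore cannot be told apart.

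The circadian clock is a loop of transcription and repression that runs in nearly every cell. BMAL1, the product of Arntl, pairs with CLOCK or with its close relative NPAS2 and switches on the period genes Per1, Per2 and Per3, Ciart, Bhlhe40, Nr1d1, Nr1d2 and Dbp through E-box sequences, and the period proteins, CIART and BHLHE40 then hold BMAL1 back. NR1D1 and NR1D2, known as REV-ERB alpha and beta, repress Arntl and Npas2 through response elements shared with the ROR receptors, and DBP passes the rhythm on through D-boxes. Transcripts of Arntl and Npas2 therefore peak at the time of day when the other 8, here called the opposite-phase genes, are low, and in skeletal muscle this clock times genes of glucose and lipid use.

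The members' own promoters are shown because the E-box, the D-box and the ROR element are the sequences through which the loop acts. Windows from 250 bases before to 50 bases after the annotated start were taken from RefSeq (build GRCr8, a later assembly than the one the authors aligned to), and all 10 genes matched, Arntl under its newer symbol Bmal1, with 11 windows because Nr1d1 has a pair of starts. The letters searched on both strands were the E-box CACGTG, the E'-box CACGTT, the D-box TTATGNAA, the ROR element (RORE) TAGGTCA and the cyclic AMP element TGACGTCA, and no match overlaps another in these windows. Of 33469 rat promoters of the same length, 6.42% hold the E-box, 4.83% the E'-box, 3.66% the D-box, 2.63% the RORE and 1.83% the cyclic AMP element. Capitals mark the matches in the 6 windows that hold one, written 5′ to 3′ along the gene's own strand. They are Arntl (chr1:176766078-176766377, plus strand), Ciart (chr2:186112197-186112496, minus strand), Per2 (chr9:99496944-99497243, minus strand), Bhlhe40 (chr4:143174200-143174499, plus strand) and both Nr1d1 windows (chr10:84231763-84232062, minus strand, and chr10:84229405-84229704, minus strand).
Arntl: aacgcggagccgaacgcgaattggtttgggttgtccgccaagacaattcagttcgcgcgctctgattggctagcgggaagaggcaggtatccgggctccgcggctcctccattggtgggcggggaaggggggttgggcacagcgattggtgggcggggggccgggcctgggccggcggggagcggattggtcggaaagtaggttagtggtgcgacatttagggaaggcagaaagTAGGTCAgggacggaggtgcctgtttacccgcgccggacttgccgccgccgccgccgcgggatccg
Ciart: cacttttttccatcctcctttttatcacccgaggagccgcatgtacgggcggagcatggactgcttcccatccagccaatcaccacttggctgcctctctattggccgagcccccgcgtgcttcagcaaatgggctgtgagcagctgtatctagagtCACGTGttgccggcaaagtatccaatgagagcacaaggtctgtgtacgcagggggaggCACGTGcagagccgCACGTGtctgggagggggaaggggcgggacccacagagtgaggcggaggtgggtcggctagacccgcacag
Per2: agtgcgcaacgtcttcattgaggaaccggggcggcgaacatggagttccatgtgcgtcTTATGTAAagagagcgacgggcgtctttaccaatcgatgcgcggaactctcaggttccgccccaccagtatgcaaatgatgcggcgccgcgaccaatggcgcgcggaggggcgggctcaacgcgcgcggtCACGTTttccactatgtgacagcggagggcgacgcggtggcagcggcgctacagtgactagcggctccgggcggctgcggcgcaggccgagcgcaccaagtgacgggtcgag
Bhlhe40: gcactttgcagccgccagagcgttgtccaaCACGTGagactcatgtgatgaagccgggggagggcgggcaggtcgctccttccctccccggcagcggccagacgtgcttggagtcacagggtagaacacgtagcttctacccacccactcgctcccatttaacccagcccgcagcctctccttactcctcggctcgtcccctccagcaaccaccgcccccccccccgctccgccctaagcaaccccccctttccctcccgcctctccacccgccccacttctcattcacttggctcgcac
Nr1d1, first window: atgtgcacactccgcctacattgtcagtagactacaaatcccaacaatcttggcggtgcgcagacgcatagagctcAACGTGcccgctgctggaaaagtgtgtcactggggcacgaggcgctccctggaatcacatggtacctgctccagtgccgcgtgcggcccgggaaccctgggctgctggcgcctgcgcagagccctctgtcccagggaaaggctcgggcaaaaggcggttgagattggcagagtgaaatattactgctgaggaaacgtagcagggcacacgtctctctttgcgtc
Nr1d1, second window: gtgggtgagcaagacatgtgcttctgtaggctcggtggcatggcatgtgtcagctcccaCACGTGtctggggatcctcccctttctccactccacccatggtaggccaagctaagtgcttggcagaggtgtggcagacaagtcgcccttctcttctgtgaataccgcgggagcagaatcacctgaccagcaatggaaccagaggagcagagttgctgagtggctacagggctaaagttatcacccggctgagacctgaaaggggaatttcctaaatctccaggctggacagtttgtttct
In Arntl the RORE begins at position -16 from the start. Ciart holds 3 E-boxes, at -93, -35 and -21. Per2 holds a D-box at -192 and an E'-box at -62, Bhlhe40 an E-box at -220, and the Nr1d1 windows an E'-box at -174 and an E-box at -191. A match describes these letters in this window only, and the windows of Npas2, Nr1d2, Per1, Per3 and Dbp hold none of the 5.

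Libraries held 3023899 to 10887041 counts on genes, and all 10 clock genes passed edgeR's filter on low counts, as did 11716 genes in all. Levels are given in CPM (counts scaled to library size by TMM), which compare 1 gene between samples and not 1 gene with another. Ciart had 2 to 73 counts per library and Npas2 12 to 101, against 17 to 2756 for the other 8 genes, so their values in the shallow libraries are imprecise. Genes of the muscle fibre itself summed to 160114 to 223480 CPM in every sample but CHEMO FO 18, which was at 114246 CPM. A few libraries carried RNA of other tissue. Skin keratinocyte genes summed to 675 CPM in TUMOUR STD 10 and 133 CPM in CHEMO FO 16, against group medians of 4.10 to 7.12 CPM, with 1 of the 12 genes of that list past the filter. CHEMO FO 18 had the highest sum of glucocorticoid response genes, 1983 CPM against a CHEMO FO median of 489 CPM, and of macrophage genes, 566 against 209 CPM. In whole muscle, fewer cells of a type and less RNA per cell cannot be told apart.

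Arntl, the activator of the loop, was higher in both chemotherapy groups than in TUMOUR STD, and Dbp, Per3, Nr1d1 and Bhlhe40 were lower. In CHEMO STD versus TUMOUR STD, 1 of the 10 genes was called higher and 4 were called lower, where a call is an unadjusted p below 0.05 in edgeR's quasi-likelihood test with a change of at least 1.5-fold. Of all 11716 genes tested, 0.93% were called higher and 1.45% lower by that rule. The authors report lower Bhlhe40, Nr1d1 and Per3 after chemotherapy in these same data. Because the members were chosen with earlier results known, their share of calls is partly set by the choice. In both comparisons with TUMOUR STD, that share therefore cannot test whether clock genes were called more often than other genes. The median log2 fold change of the 10 genes was -0.58 and that of the 8 opposite-phase genes -0.68, against near 0 over all tested genes. None of the 10 separated the groups without overlap, which 0.495% of all genes did. After Benjamini-Hochberg adjustment over all tested genes no gene passed 0.05 in edgeR, DESeq2 or limma voom, where 762, 802 and 1058 had an unadjusted p below 0.05, so every call below is a call at the unadjusted threshold only.

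The same 5 genes were called in CHEMO FO versus TUMOUR STD, which shares the TUMOUR STD samples with the comparison above. There 1 of 10 was called higher and 4 lower, against 1.09% and 2.51% of all genes, the median log2 fold change was -0.56 for the 10 genes and -0.72 for the opposite-phase genes, and none of the 10 separated the groups, which 0.324% of genes did. None of the 10 passed 0.05 after adjustment in edgeR, DESeq2 or limma voom, with 6, 6 and 7 of them below an unadjusted 0.05, and DESeq2 passed 11 genes in all where the other tools passed 0. In CHEMO FO versus CHEMO STD, the comparison that addresses the diet, none of the 10 was called, against 0.615% of all genes called higher and 1.05% lower, and none separated the groups, as 0.0683% of genes did. The median was 0.02, and none of the 10 had an unadjusted p below 0.05 in edgeR, DESeq2 or limma voom. The approximate 95% intervals of the diet comparison were wide, from -0.50 to 0.75 for Arntl and from -1.0 to 0.73 for Dbp on the log2 scale, and a missed threshold does not show that the diets were alike.

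**Figure D1:**
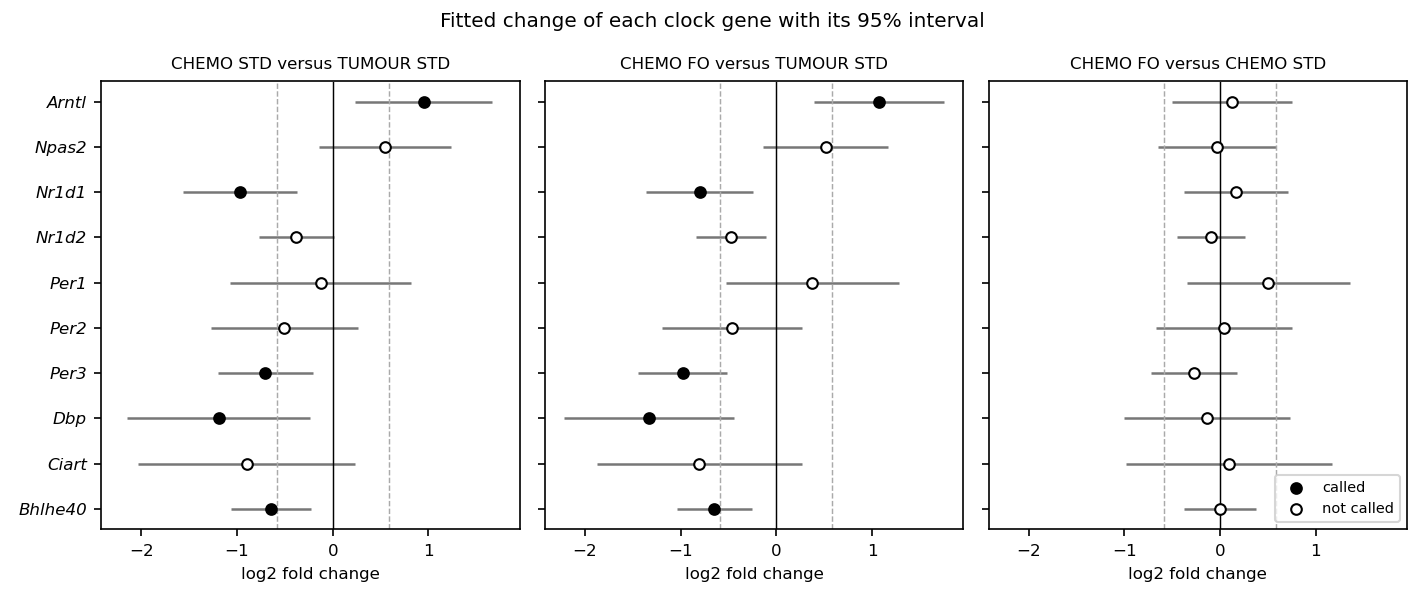
Log2 fold change (horizontal axis) of each clock gene (vertical axis) in the 3 comparisons, with bars for an approximate 95% interval from the standard error and dashed lines at 1.5-fold. Filled points, the called genes, are Arntl to the right of 0 and Nr1d1, Per3, Dbp and Bhlhe40 to the left in both comparisons with TUMOUR STD, and there are none in the diet comparison.

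Arntl encodes BMAL1, the activator without a substitute. It stood at 12.0, 14.8, 21.5, 40.0 and 15.4 CPM in TUMOUR STD samples 8 to 12. The CHEMO STD samples ranged from 16 through a median of 45.9 to 64.9 CPM, and the CHEMO FO samples from 15.8 through 46.6 to 58.3 CPM. TUMOUR STD 11 lay among the chemotherapy samples, while CHEMO STD 1+2 and 4 and CHEMO FO 14 lay among the other TUMOUR STD samples, so the groups overlapped. The log2 fold change was 0.95 (standard error 0.37, edgeR adjusted p = 0.719) in CHEMO STD and 1.07 (standard error 0.35, edgeR adjusted p = 0.486) in CHEMO FO, both against TUMOUR STD. An exact permutation test of the mean log2 CPM (two-sided, 462 arrangements) gave p = 0.0974 for the first and (1287 arrangements) p = 0.0117 for the second. Arntl was called in both comparisons whichever library was left out.

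Npas2, the partner that can stand in for CLOCK, was at 2.78, 10.0, 6.90, 11.6 and 4.79 CPM in TUMOUR STD 8 to 12. It ranged from 5.78 through 12.3 to 14.3 CPM in CHEMO STD and from 2.64 through 11.1 to 15.8 CPM in CHEMO FO. The lowest TUMOUR STD and CHEMO FO samples, 8 and 14, were also the samples with the lowest Arntl of their groups. The log2 fold changes, 0.55 in CHEMO STD and 0.51 in CHEMO FO against TUMOUR STD (edgeR adjusted p = 0.728 and 0.630), were not called. Without CHEMO FO 14 the second became 0.67 and was called (edgeR unadjusted p = 0.0319).

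Among the repressors, Per3 was the period gene that passed the thresholds. Its levels were 77.3, 68.6, 62.4, 43.0 and 58.7 CPM in TUMOUR STD 8 to 12, from 26.7 through 32.1 to 61.0 CPM in CHEMO STD, and from 16.7 through 28.7 to 57.2 CPM in CHEMO FO. CHEMO STD 4 and CHEMO FO 14 reached the TUMOUR STD levels, and the TUMOUR STD sample nearest to the chemotherapy groups was again 11. Per3 fell by 0.70 on the log2 scale in CHEMO STD (standard error 0.25, edgeR adjusted p = 0.719, exact permutation p = 0.0238) and by 0.98 in CHEMO FO (standard error 0.24, edgeR adjusted p = 0.433, exact permutation p = 0.00544). It kept its call in both comparisons whichever library was left out.

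Per1 and Per2 were the period genes with the wider scatter. Per1 was at 29.4, 38.3, 27.8, 16.3 and 24.7 CPM in TUMOUR STD 8 to 12, from 5.40 through 13.0 to 60.5 CPM in CHEMO STD, an 11.2-fold range, and from 9.76 through 39.1 to 62.1 CPM in CHEMO FO. Samples above every TUMOUR STD sample and samples below every one occurred in both chemotherapy groups. Its log2 fold changes were -0.13 in CHEMO STD and 0.38 in CHEMO FO against TUMOUR STD, and 0.50 in CHEMO FO versus CHEMO STD, with none called. With sample 1+2, the highest CHEMO STD sample for Per1, left out, the last became 1.04 and was called (edgeR unadjusted p = 0.0223). CHEMO FO 18, the sample of highest Per1, was also the sample of highest glucocorticoid response sum, and Per1 rose with that sum over the samples within groups (Pearson r = 0.60, permutation p = 0.00602, Spearman rho = 0.65, permutation p = 0.00851, adjusted p = 0.146 over 90 such relations, r = 0.73 without CHEMO FO 13 and 18, the samples farthest out). Per1 rose as much with the sum of immediate early genes (r = 0.66), the library total (r = 0.61) and the macrophage sum (r = 0.57). Their adjusted permutation p were 0.153, 0.250 and 0.146, and r was 0.39, 0.33 and 0.42 without the samples farthest out. Its r was below 0 with the slow fibre (-0.17), smooth muscle (-0.17) and adipocyte (-0.35) sums. Whether any of these measures had a part in the Per1 values was not tested.

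Per2 stood at 24.8, 24.1, 27.1, 12.8 and 24.5 CPM in TUMOUR STD 8 to 12, from 4.96 through 12.4 to 27.8 CPM in CHEMO STD and from 6.33 through 12.6 to 32.5 CPM in CHEMO FO. In each chemotherapy group a pair of samples, 1+2 and 4 in CHEMO STD and 14 and 18 in CHEMO FO, stood above all TUMOUR STD samples and the others at or below 15.0 CPM. The log2 fold changes against TUMOUR STD, -0.50 in CHEMO STD and -0.46 in CHEMO FO, were not called (edgeR adjusted p = 0.745 and 0.709).

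Ciart, the repressor also called Chrono, had the same pairs of high samples. It was at 7.12, 4.67, 5.83, 2.10 and 6.21 CPM in TUMOUR STD 8 to 12, from 0.393 through 1.59 to 6.20 CPM in CHEMO STD and from 0.422 through 1.78 to 7.48 CPM in CHEMO FO. Samples of all 3 groups lay above 6 CPM, and the chemotherapy groups reached down to less than 1 CPM. The log2 fold changes of -0.90 (standard error 0.58) and -0.80 (standard error 0.55) were not called (edgeR adjusted p = 0.728 and 0.647). Ciart was called lower without CHEMO STD 4, at -1.37 in CHEMO STD (edgeR unadjusted p = 0.0337), and without CHEMO FO 18, at -1.18 in CHEMO FO (edgeR unadjusted p = 0.0430). It was also called in CHEMO FO by limma voom, at -1.39 (unadjusted p = 0.0154).

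Bhlhe40, a repressor that binds E-boxes and answers to stress and hypoxia outside the clock as well, had a narrower spread. Its levels were 191, 238, 226, 135 and 231 CPM in TUMOUR STD 8 to 12, from 102 through 129 to 161 CPM in CHEMO STD and from 58.1 through 143 to 187 CPM in CHEMO FO. Every TUMOUR STD sample but 11 lay above all samples of both chemotherapy groups. Bhlhe40 fell by 0.65 in each comparison with TUMOUR STD on the log2 scale (standard error 0.21 in CHEMO STD and 0.20 in CHEMO FO, edgeR adjusted p = 0.719 and 0.486, exact permutation p = 0.0152 and 0.0202). The change is close to 1.5-fold, and the call was lost without CHEMO STD 6, at -0.58, and without CHEMO FO 18, at -0.52.

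Nr1d1 and Nr1d2 encode the nuclear receptors that repress Arntl. Nr1d1 was at 126, 225, 268, 117 and 240.4 CPM in TUMOUR STD 8 to 12, from 77.8 through 101 to 121 CPM in CHEMO STD and from 46.7 through 104 to 192 CPM in CHEMO FO. TUMOUR STD 9, 10 and 12 lay above all chemotherapy samples, and the CHEMO STD samples spanned a 1.56-fold range against 4.12-fold in CHEMO FO. Nr1d1 fell by 0.97 in CHEMO STD (standard error 0.31, edgeR adjusted p = 0.719, exact permutation p = 0.00433) and by 0.80 in CHEMO FO (standard error 0.28, edgeR adjusted p = 0.486, exact permutation p = 0.0513) on the log2 scale, and it was called in both whichever single library was left out. With TUMOUR STD 10 and CHEMO FO 18 both left out, the CHEMO FO call was lost, at -0.54. Nr1d1 overlaps Thra, the thyroid hormone receptor alpha gene, on the opposite strand, and the sources used here do not say whether the counting used strand. Thra itself differed little between the groups, with log2 fold changes of -0.07 and -0.06 against TUMOUR STD (edgeR adjusted p = 0.930 and 0.935).

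Nr1d2 was at 157, 168, 110.5, 98.7 and 147 CPM in TUMOUR STD 8 to 12, from 71.4 through 107 to 129.5 CPM in CHEMO STD and from 60.6 through 89.6 to 159 CPM in CHEMO FO. CHEMO FO 14 was alone in its group in reaching the upper TUMOUR STD samples. The log2 fold changes of -0.38 in CHEMO STD and -0.48 in CHEMO FO were under 1.5-fold, although the second had an unadjusted p of 0.0178 in edgeR (adjusted p = 0.503), and without CHEMO FO 14 it was called, at -0.60.

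Dbp, the output activator and a direct target of BMAL1, had the largest log2 fold changes of the 10 genes. It stood at 88.4, 77.9, 79.2, 30.4 and 137 CPM in TUMOUR STD 8 to 12, from 14.8 through 26.2 to 71.5 CPM in CHEMO STD and from 10.4 through 24.2 to 103 CPM in CHEMO FO. CHEMO FO 14 at 103 CPM was far above the next CHEMO FO sample at 41.6 CPM, CHEMO STD 1+2 and 4 were high in their group, and TUMOUR STD 11 was low in its own. Dbp fell by 1.19 in CHEMO STD (standard error 0.49, edgeR adjusted p = 0.719, exact permutation p = 0.0346) and by 1.33 in CHEMO FO (standard error 0.45, edgeR adjusted p = 0.486, exact permutation p = 0.0256) on the log2 scale. The CHEMO STD call was lost without TUMOUR STD 12, at -0.93, or without CHEMO STD 7, at -1.03.

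**Figure D2:**
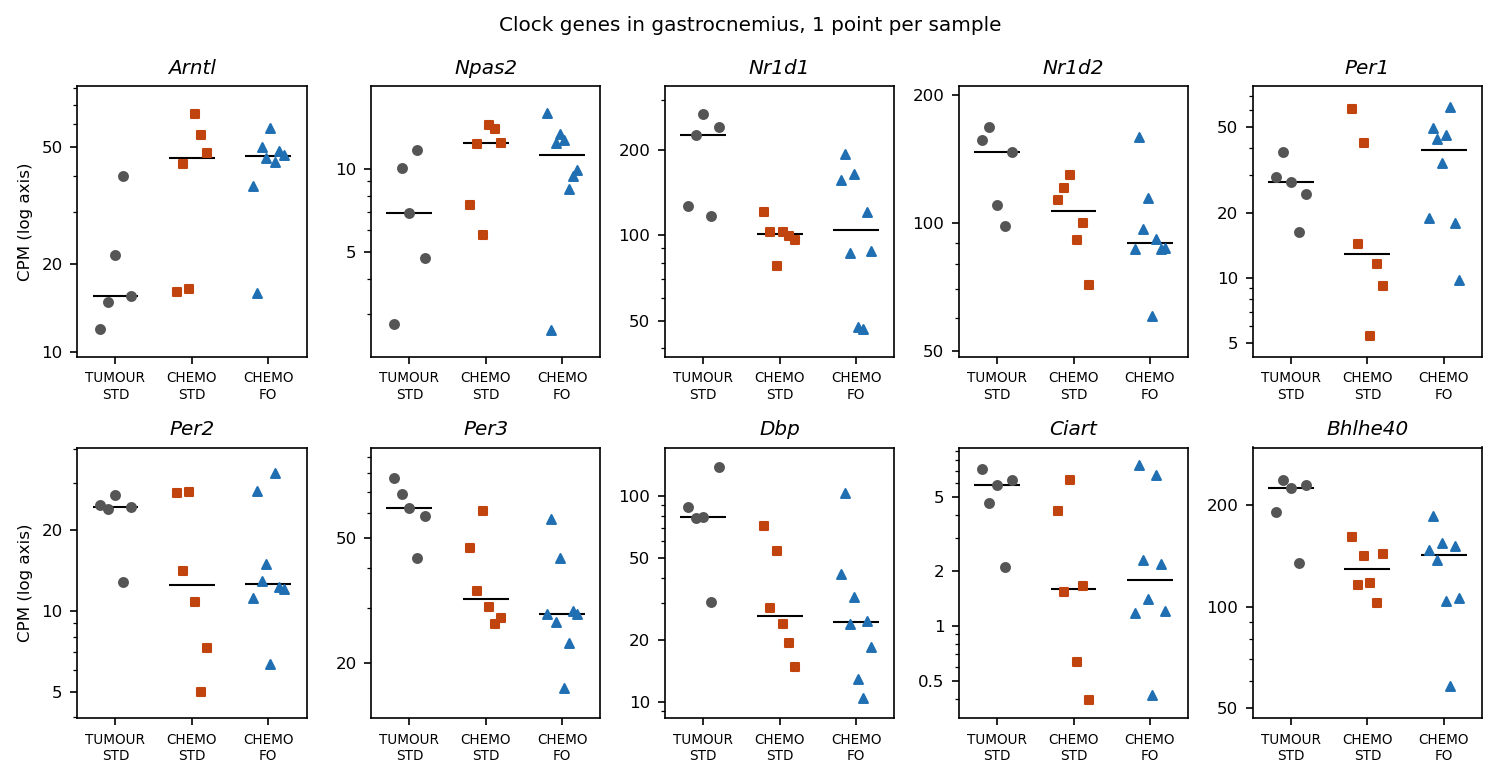
CPM on a log axis (vertical) of each clock gene by group (horizontal), with 1 point per sample and a line at the group median. Arntl is low in 4 TUMOUR STD, 2 CHEMO STD and 1 CHEMO FO samples and high in the others, and the groups overlap for every gene.

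The same few samples stood apart in gene after gene. TUMOUR STD 11 had the highest Arntl and Npas2 of its group and the lowest Nr1d1, Nr1d2, Per1, Per2, Per3, Dbp, Ciart and Bhlhe40. CHEMO FO 14 had the lowest Arntl and Npas2 of its group and the highest Nr1d1, Nr1d2, Per3, Dbp, Ciart and Bhlhe40. In CHEMO STD, samples 1+2 and 4 held the lowest Arntl and Npas2 and the highest Per1, Per2, Per3, Dbp and Ciart. For Nr1d1 they parted, with 1+2 the highest of the group (121 CPM) and 4 the lowest (77.8 CPM). CHEMO FO 18 also broke the pattern, with the highest Per1 and Per2 and the lowest Dbp, Nr1d1 and Bhlhe40 of its group.

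**Figure D3:**
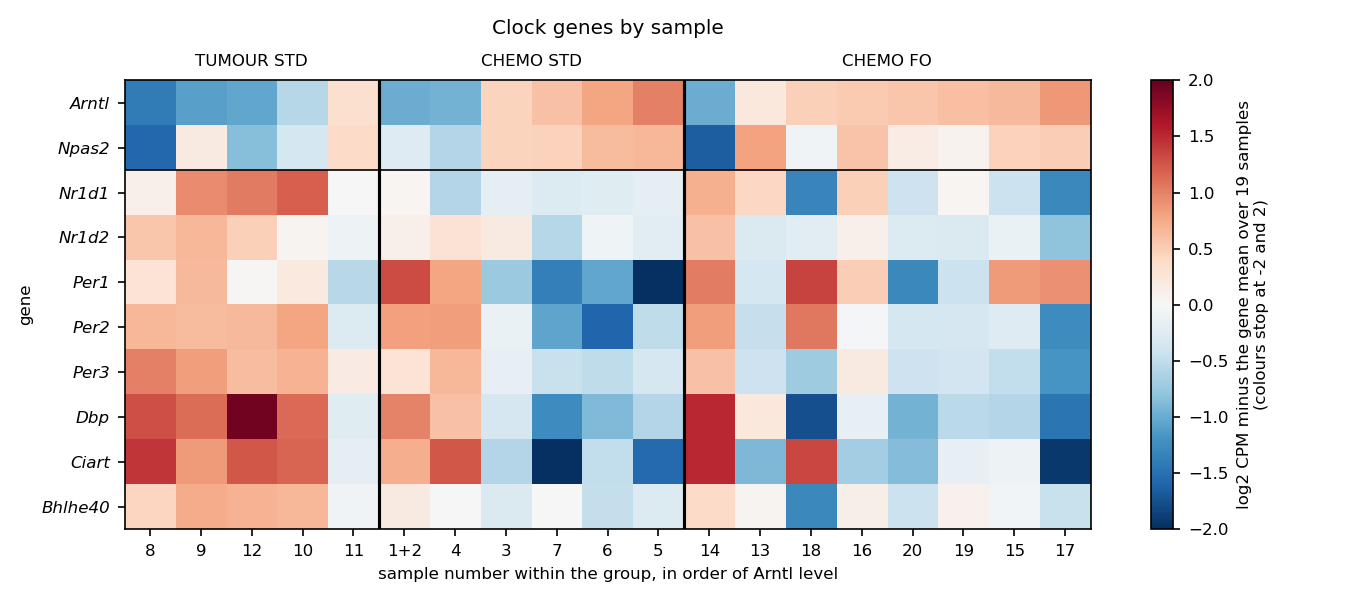
Log2 CPM of each clock gene (rows) minus its mean over the 19 samples, by sample (columns), in order of Arntl within each group, with red above and blue below the mean. Columns at the left of each group, led by TUMOUR STD 8, CHEMO STD 1+2 and CHEMO FO 14, are blue for Arntl and Npas2 and mostly red for the 8 opposite-phase genes, and those at the right are mostly the reverse, with Per1 in CHEMO FO 15, 17 and 18 and Per2 and Ciart in CHEMO FO 18 among the exceptions. Npas2 in TUMOUR STD 9 is red, against the columns beside it.

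The relation of Arntl and Npas2 to the opposite-phase genes was measured within groups, as the deviation of each sample's log2 CPM from the mean of its group, so that differences between the groups play no part. Over the 19 samples Arntl correlated negatively with all 8 opposite-phase genes, with a median Pearson r of -0.75 against -0.01 over the 11715 other tested genes. Dbp had the lowest r of all 11715 genes and Per3 rank 2 from the lowest. These 2 passed 0.05 after adjustment over all genes in limma with group as a term, the only negative relations of Arntl to do so, 0.0171% of genes. Beyond them, Ciart had rank 4 from the lowest r, Per2 rank 6 and Nr1d2 rank 8.

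For Arntl and Dbp, r was -0.84 (permutation p = 0.00022, Spearman rho = -0.80, permutation p = 0.00038, limma adjusted p = 0.00492). For Arntl and Per3, r was -0.83 (permutation p = 6.00e-05, Spearman rho = -0.85, permutation p = 0.00029, limma adjusted p = 0.0383). The r values of Ciart, Per2, Nr1d2 and Per1 with Arntl were -0.77, -0.75, -0.74 and -0.67, with limma adjusted p from 0.123 to 0.432. Bhlhe40 at -0.53 and Nr1d1 at -0.34, both called lower with chemotherapy, had the weakest relations with Arntl within groups (limma adjusted p = 1.00 for both).

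**Figure D4:**
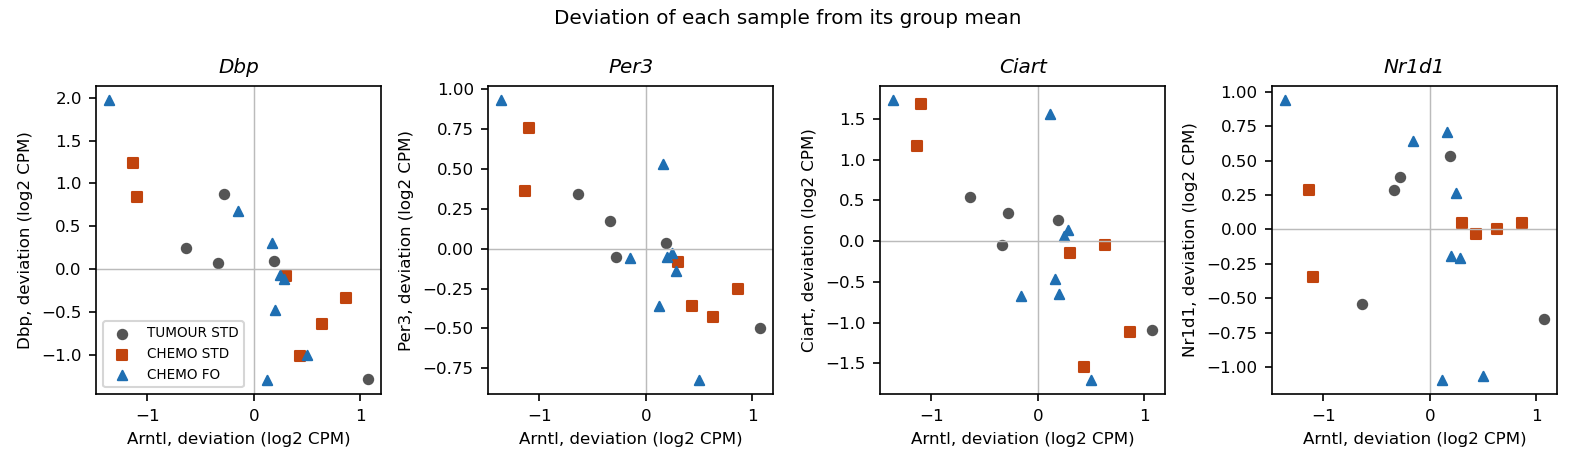
Deviation from the group mean in log2 CPM of Arntl (horizontal axis) against Dbp, Per3, Ciart and Nr1d1 (vertical axes), 1 point per sample and a colour per group. Points fall from upper left to lower right for Dbp (r = -0.84), Per3 (r = -0.83) and Ciart (r = -0.77, with CHEMO FO 18 above the rest) and scatter widely for Nr1d1 (r = -0.34).

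These relations leaned on the samples at the ends. CHEMO FO 14 and CHEMO STD 1+2 had the Arntl deviations from the group mean that lay farthest from the median deviation. Leaving out these 2 samples brought r to -0.71 for Dbp and -0.76 for Per3, and neither then passed the adjusted threshold. Without CHEMO FO 14 alone, the Dbp relation had r = -0.78 and a limma adjusted p of 0.165, and the Per3 relation lost the threshold in 12 of the 20 runs that left out 1 library, with r between -0.89 and -0.77. With TUMOUR STD 10 and CHEMO FO 18 both left out, 4 relations of Arntl passed, as Per2 (r = -0.86) and Ciart (r = -0.86) joined Dbp and Per3. Arntl levels also left a wide gap, with 7 samples at or below 21.5 CPM, 12 at or above 36.9 CPM and none between. Among the 7 lower samples r of Arntl with the 8 opposite-phase genes ran from -0.70 to 0.52, and among the 12 higher ones from -0.44 to -0.16. These r values used log2 CPM with the groups pooled, not deviations from group means. The division also narrowed the range of Arntl, to 0.83 below the gap and 0.81 above it on the log2 scale. None of these 16, nor of the matching 2 with Npas2, had an adjusted permutation p below 0.625. With fewer samples, a narrower range and another measure, these values cannot decide whether the relation over 19 samples holds within a side.

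Group by group, the direction was the same in both chemotherapy groups for 7 of the 8 genes. Inside CHEMO STD, r of Arntl was -0.97 with Per1, -0.93 with Per3 and -0.90 with Dbp (exact permutation p = 0.00694, 0.0236 and 0.0306, not adjusted for 8 relations). Inside CHEMO FO it was -0.85 with Dbp, -0.83 with Nr1d2 and -0.78 with Per3 (exact permutation p = 0.0102, 0.0150 and 0.0176, not adjusted). Per1 stood at -0.21 and Nr1d1 at -0.62 inside CHEMO FO, against -0.97 and 0.11 inside CHEMO STD, and the difference between the groups was not tested. TUMOUR STD, with 5 samples, is too small for a correlation of its own.

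Npas2 ran with Arntl and had rank 2 from the highest r with it among all genes (r = 0.80, permutation p = 0.0006, Spearman rho = 0.63, permutation p = 0.00491, limma adjusted p = 0.0554, r = 0.71 without CHEMO FO 14 and CHEMO STD 1+2). Its r with the opposite-phase genes was negative for all 8, with a median of -0.63 and the lowest for Ciart (r = -0.74) and Per3 (r = -0.68). None passed the adjusted threshold in limma, where 6 of the 8 had an unadjusted p below 0.05, and 0% of all genes had a negative relation with Npas2 that passed. The opposite-phase genes ran with each other, with 27 of their 28 pairs positive, a median r of 0.61 and a range from -0.09 to 0.86. The leading component of the 10 genes took 66.2% of their variance within groups, with Arntl and Npas2 on one side and all 8 others on the opposite side. Among those 8, loadings were largest for Ciart (0.53), Dbp (0.40) and Per1 (0.38) and small for Nr1d1 (0.11) and Bhlhe40 (0.09). The genes were not scaled, so those of wide spread, Ciart first, weigh most.

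**Figure D5:**
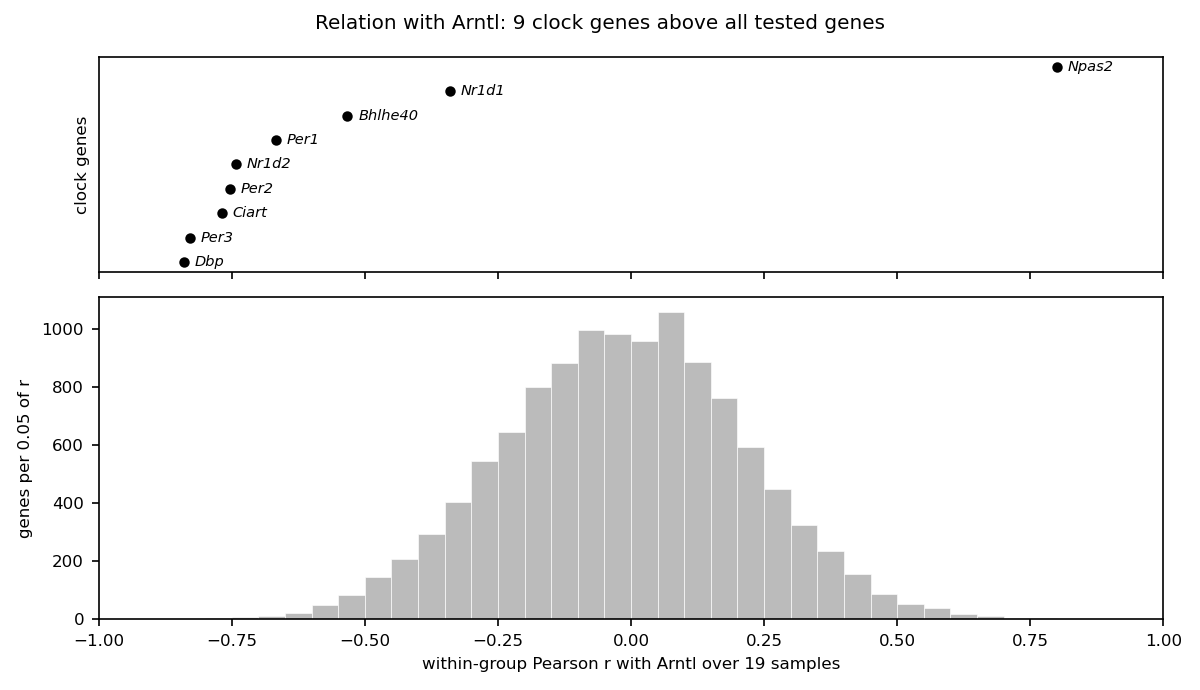
Within-group Pearson r with Arntl over 19 samples (horizontal axis) for the other 9 clock genes (upper panel) and as a histogram of all tested genes (lower panel, genes per bin). Dbp and Per3 lie beyond the lower end of the histogram's bulk, Npas2 beyond its upper end, and Nr1d1 inside it.

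The spread within groups differed among the clock genes. The within-group SD of log2 CPM was 1.09 for Ciart, 0.97 for Per1, 0.92 for Dbp and 0.77 for Per2, which is above that of 94.5% or more of all tested genes. It was 0.71 for both Arntl and Npas2 (percentiles 92.4 and 92.2), 0.60 for Nr1d1 and 0.47 for Per3. Bhlhe40 at 0.41 and Nr1d2 at 0.36 were close to the median of all genes, 0.36, but among genes at or above their own mean level, which scatter less, they stood at percentiles 80.6 and 73.4. Ciart's SD includes counting error, since 2 of its CHEMO STD values rest on 2 counts each.

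Nr1d1 and Bhlhe40 followed a larger part of the transcriptome than they followed Arntl. Within groups, Nr1d1 had a limma adjusted p below 0.05 with 1524 of 11715 genes and Bhlhe40 with 1226, whereas the other 8 clock genes had 0 to 11 each. Their r with the leading component of all tested genes, which took 25.9% of the variance within groups, was 0.74 and 0.69, against 0.48 for Dbp, 0.28 for Per3 and -0.20 for Arntl. The genes nearest to Nr1d1 were Rfx2 (r = 0.91), Prpf8 and Synpo2l (r = 0.90 for both), then Nfatc2 (r = 0.90) and Sf3a1 (r = 0.89). The most opposed were Smu1 (r = -0.87), Efcab7 (r = -0.86), Rsrp1, Taf1d and Caprin1 (r = -0.85 for the last 3). Prpf8, Sf3a1 and Smu1 are parts of the splicing machinery, and Synpo2l belongs to the Z-disc of muscle. What that component stands for was not tested. Thra, which shares its locus with Nr1d1, had r = 0.57 with it.

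By the same measure the gene most like Arntl was Lrrc30 (r = 0.89, limma adjusted p = 0.000473), followed after Npas2 by Tead4 (r = 0.77), Timm22 and Ypel2 (r = 0.76 for both) and Tmem100 (r = 0.73). Outside the 10 genes, the most opposed to Arntl were Tef (r = -0.79), Idh1 (r = -0.76), Usp2 (r = -0.75), Ccn2 (r = -0.72) and Zfp503 (r = -0.71). Tef is a D-box activator related to Dbp, and Usp2 is a deubiquitinase with a known daily rhythm.

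Of 16 other clock genes, 13 were tested, and none was called in CHEMO STD versus TUMOUR STD, where 7 were higher and 6 lower with a median log2 fold change of 0.01. Nfil3, the D-box repressor that opposes DBP, was called higher in CHEMO FO against both other groups, with log2 fold changes of 1.43 over TUMOUR STD and 0.93 over CHEMO STD (edgeR adjusted p = 0.486 and 0.974). CHEMO FO 18, at 143 CPM, was far above the next CHEMO FO sample for Nfil3, at 51.8 CPM. Without CHEMO FO 18, Nfil3 was called over TUMOUR STD, at 0.94, and not over CHEMO STD, at 0.43. Bhlhe41, the close relative of Bhlhe40, was called lower in CHEMO FO versus TUMOUR STD, at -0.69, and lost the call without CHEMO FO 17 (-0.61) or 18 (-0.50). Cry2, a partner of the period proteins, was under the fold threshold at -0.52 in CHEMO STD (edgeR unadjusted p = 0.00156, adjusted p = 0.719), from 43.2 ± 7.42 CPM in TUMOUR STD (SD, n = 5) to 30.1 ± 2.65 CPM (SD, n = 6). In CHEMO FO versus CHEMO STD, Cry2 (0.32) and Csnk1d (0.26), another of the 13, were also under that threshold (edgeR unadjusted p = 0.0214 and 0.0279, adjusted p = 0.974 for both). Clock, the usual partner of BMAL1, was at 74.5 ± 23.0 CPM in TUMOUR STD (SD, n = 5), 95.5 ± 27.3 in CHEMO STD (SD, n = 6) and 95.4 ± 25.1 in CHEMO FO (SD, n = 8) and was not called. With Arntl within groups, Cry1 had r = 0.71, Nfil3 0.65, Clock 0.41, Cry2 -0.53 and Bhlhe41 -0.50.

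Among 14 tested clock outputs of muscle, none was called in CHEMO STD versus TUMOUR STD, with 7 higher and 7 lower. With 0.93% of all genes called higher and 1.45% lower there, a list of 14 would hold few calls or none. In CHEMO FO versus TUMOUR STD, the kinase Pdk4 (1.89), which restrains glucose oxidation, the atrophy ligase Fbxo32 (1.27) and the cell cycle inhibitor Cdkn1a (1.37) were called higher and the glycolytic regulator Pfkfb3 (-0.68) lower, each value a log2 fold change. Cdkn1a (1.57), Fbxo32 (0.92) and Pfkfb3 (-0.62) were called in the same directions in CHEMO FO versus CHEMO STD. CHEMO FO 17 and 18 stood apart for this list, with sums of 3630 and 4085 CPM against a group median of 1879.6 CPM. Pdk4 was at 1047 and 1115 CPM in them and at no more than 184 CPM in the other CHEMO FO samples. With both left out, the log2 fold changes over TUMOUR STD became 0.11 for Pdk4, 0.42 for Fbxo32 and 0.64 for Cdkn1a, and none of these was called, whereas Pfkfb3 was still called, at -0.74. Against CHEMO STD, Cdkn1a became 0.83 and Fbxo32 0.06 and neither was called, and Pfkfb3 was called at -0.68 with both left out but not at -0.53 with CHEMO FO 18 alone left out.

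Other lists differed between the groups alongside the clock genes. In CHEMO STD versus TUMOUR STD, all 8 slow fibre genes, all 7 tendon genes and all 5 tested smooth muscle genes had log2 fold changes below 0. Of these, 8 were called lower, Myh7, Fmod and Myh11 among them, where 1.45% of all genes were. In CHEMO FO versus TUMOUR STD, all 8 slow fibre genes, all 7 tendon genes and 4 of the 5 smooth muscle genes were below 0. There 1, 3 and 3 of them were called lower, where 2.51% of all genes were. Without CHEMO FO 18, Myh7 (-0.51) and Tagln (-0.48) lost that call. The summed level of the slow fibre list ran from 8246 to 16413 CPM in TUMOUR STD, 6685 to 11054 in CHEMO STD and 5577 to 15815 in CHEMO FO. That of the tendon list ran from 617 to 1643, 328 to 1199.9 and 259.9 to 922 CPM, and that of the smooth muscle list from 232 to 327, 157 to 248 and 77.8 to 289 CPM in the same order. The immediate early genes Fos (-1.04), Egr1 (-0.98) and Dusp1 (-0.88) were called lower in CHEMO STD versus TUMOUR STD, in log2 fold change. All 8 tested genes of that list had log2 fold changes above 0 in CHEMO FO versus CHEMO STD, with Fos (1.23) and Dusp1 (0.59) called higher, and in CHEMO FO versus TUMOUR STD none was called. Dusp1 lay at the fold threshold in the diet comparison, and its call was lost without CHEMO FO 17 (0.49) or 18 (0.58). All 10 glucocorticoid response genes had log2 fold changes above 0 in CHEMO FO versus TUMOUR STD, with Zbtb16 (0.85), Tsc22d3 (0.74), Cebpd (1.60) and Mt2A (5.49) called, and none was called in CHEMO STD versus TUMOUR STD. Mt2A was at 727 CPM in CHEMO FO 18 and at no more than 11.1 CPM in the other CHEMO FO samples. Without CHEMO FO 18, Mt2A became 0.91 and Tsc22d3 0.37 and neither was called, while Zbtb16 (0.78) and Cebpd (0.99) were. With CHEMO FO 17 and 18 both left out, Cebpd became 0.69 and was not called, and Zbtb16 was called at 0.75. In CHEMO FO versus CHEMO STD all 10 were also above 0, with a median of 0.49. Mt2A alone was called there, at 5.38, and was not called without CHEMO FO 18, at 0.91. Of 90 relations within groups between a clock gene and a list or the library total, none had an adjusted permutation p below 0.137. Those at 0.137 were Dbp with the tendon list (r = 0.66, Spearman rho = 0.71, r = 0.60 without CHEMO STD 1+2 and CHEMO FO 20) and Per2 with the macrophage list (r = 0.65, Spearman rho = 0.72, r = 0.46 without CHEMO FO 18 and CHEMO STD 1+2). Whether these lists had a part in the clock gene differences was not tested.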

How the data were processed

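Gastrocnemius of Fischer 344 rats was sequenced in 20 libraries (5 TUMOUR STD, 7 CHEMO STD and 8 CHEMO FO). The authors made stranded total RNA libraries after removal of ribosomal RNA, trimmed the reads with Trim Galore 0.4.1, aligned them with TopHat2 2.0.10 and Bowtie2, processed the alignments in Partek Flow with gene models from Ensembl, and deposited counts per gene without normalisation, the unit used here. Whether counting used strand is not given in the sources used here. Rows without a gene name (388, holding 0.102% to 0.272% of a library) were left out, and CHEMO STD libraries 1 and 2 were summed, which leaves 19 samples.

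The fit used edgeR 4.0.16 in R 4.3.3 (default filter, TMM, quasi-likelihood test, the 3 groups in 1 fit). Calls used the study's own thresholds, 1.5-fold and an unadjusted p of 0.05, and p-values were adjusted by Benjamini-Hochberg over all genes tested. Standard errors are the fold change divided by the root of the F statistic. Relations used log2 CPM (prior count 2), 100000 permutations within groups (all arrangements inside 1 group) and limma 3.58.1. No label says which samples come from separate animals, so p-values measure the spread between samples. The 10 members and all gene lists were chosen with earlier results of these data known, and every member is named. Of other genes, the text names some of those called in a list and those with the highest and lowest r with Arntl or Nr1d1. It also names Clock, Cry1, Cry2 and Csnk1d as clock genes and Thra for its locus. Alternatives included DESeq2 1.42.0 and limma voom, and leaving out TUMOUR STD 10 and CHEMO FO 18 together, or CHEMO FO 17 and 18 singly and together for the genes of lists, was added after seeing the data. The fits were tested on simulated data. Figures were drawn with matplotlib 3.10.9.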

Additional observations from a re-analysis of the deposited data

Results flagged for a closer look

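A test for a sample far from the others was run for each clock gene in each group, 30 groups of values in all, and marked 2, where about 5% are marked by chance. Per2 was marked in TUMOUR STD, where sample 11 at 12.8 CPM was below the next sample at 24.1 CPM by 0.788 of the group's range. Dbp was marked in CHEMO FO, where sample 14 at 103 CPM was above the next at 41.6 CPM by 0.661 of the range. These are the samples that stood opposite to the rest of their groups for Arntl as well.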

How the results depend on the processing

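The genes called in CHEMO STD versus TUMOUR STD numbered 279, and became 603 with CHEMO STD 1 and 2 both left out, 971 without the filter, 762 by p alone and 0 by adjusted p. In CHEMO FO versus CHEMO STD, 195 became 722 without the filter, 528 by p alone and 0 by adjusted p. In CHEMO FO versus TUMOUR STD, 422 became 1116 without the filter, 1059 by p alone, 0 by adjusted p and 201 with TUMOUR STD 10 and CHEMO FO 18 left out. The causes were not tested. Leaving out 1 library at a time gave 161 to 530, 153 to 234 and 273 to 584 in the same order, the extremes being without TUMOUR STD 10 and 8 in the first and without CHEMO FO 18 and TUMOUR STD 11 in the last. Of the 5 clock genes called in each comparison with TUMOUR STD, 0 remained by adjusted p, 3 in CHEMO FO with TUMOUR STD 10 and CHEMO FO 18 left out, and 4 to 6 (CHEMO STD) or 5 to 7 (CHEMO FO) without 1 library. In the diet comparison 1, Per1, was called with CHEMO STD 1 and 2 both left out, and 0 to 0 without 1 library. Runs without 1 library never removed sample 1+2 as a whole, because its other library stayed in.

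Relations of Arntl or Npas2 past the adjusted threshold numbered 2, became 0 with the 2 farthest samples left out and 4 with TUMOUR STD 10 and CHEMO FO 18 left out, and ran from 0 (without CHEMO FO 14) to 4 (without CHEMO FO 18) without 1 library.

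Directions changed only in values that were not called. Per1 became 0.13 in CHEMO STD versus TUMOUR STD with libraries 1 and 2 separate and -0.022 in CHEMO FO versus TUMOUR STD in limma voom. In CHEMO FO versus CHEMO STD, leaving out CHEMO STD 1 and 2 gave -0.055 for Arntl, 0.21 for Dbp and 0.072 for Bhlhe40. Keeping those libraries separate gave 0.037 for Npas2 and -0.088 for Per2. Limma voom gave -0.10 for Per2, -0.42 for Ciart and 0.14 for Bhlhe40. Leaving out TUMOUR STD 10 and CHEMO FO 18 gave 0.017 for Npas2, -0.23 for Per2, -0.31 for Ciart and 0.11 for Bhlhe40, and Bhlhe40 was 0.0014 with RLE factors, 0.0028 without the filter and 0.0025 in DESeq2. The r of Npas2 and Nr1d1 was 0.069 with the 2 farthest samples left out. Without 1 library, Per1 ran from -0.34 to 0.058 in CHEMO STD versus TUMOUR STD, that r from -0.29 to 0.21, and in the diet comparison Arntl from -0.049 to 0.30, Npas2 from -0.18 to 0.11, Per2 from -0.22 to 0.29, Dbp from -0.65 to 0.022, Ciart from -0.30 to 0.57 and Bhlhe40 from -0.089 to 0.11. Of 1332 single values recomputed, 1250 kept their direction and side of the threshold, 22 lost the call, 10 gained one and 50 turned.

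No paired analysis was possible because the groups share no replicate numbers. Counts per library limit Ciart and Npas2 most.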
